A study of Mus musculus with 37 samples.

Results

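The mitochondrial ribosomal protein genes are the nuclear genes that encode the protein part of the ribosome inside mitochondria. They were taken here as every gene whose symbol begins with Mrpl or Mrps followed by a digit and whose mean was at least 1 RPKM (a read density scaled to transcript length and library size) in the table of a stage. By symbol, 77 of 24318 genes qualified, and all 77 of 77 passed the expression minimum at both stages, so the minimum removed no member. The lowest means were those of Mrps25 at E10.5 (9.44 RPKM) and Mrps34 at E11.5 (8.29 RPKM), well inside the minimum, and no member lay outside it. The family was assembled in order to place Mrpl33 and Mrpl20, a pair of its genes that had been chosen by their RPKM in male germ cells at E11.5 (embryonic day, counted from the plug), where DCKO was compared with control and males with females. For that pair the male values are therefore given as a description without a test. Because males were also compared with females, the E11.5 female values of the pair may not be independent of the choice. Of the 77, 50 encode parts of the large subunit (30 with a bacterial homologue, 20 specific to mitochondria, among them Mrps18a and Mrps30 despite their names) and 26 encode parts of the small subunit (16 with a bacterial homologue, 10 specific to mitochondria). The remaining member, Mrps36, carries the family name but encodes a component of the alpha-ketoglutarate dehydrogenase complex.

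The mitochondrial ribosome translates the few messenger RNAs made from mitochondrial DNA, all of which encode subunits of the respiratory chain and of ATP synthase. Its ribosomal RNAs come from mitochondrial DNA, whereas all of its proteins are encoded in the nucleus, made in the cytosol and imported. Compared with the bacterial ribosome it has less RNA and more protein, and many of its proteins have no bacterial counterpart. Genes for mitochondrial proteins of this kind are often described as targets of the transcription factors NRF1, GABP (an ETS factor) and YY1.

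The RNA came from primordial germ cells (PGCs) of mouse embryos, which later give rise to eggs or sperm. They were sorted for green fluorescence from an Oct4-IRES-Gfp reporter, and polyadenylated RNA was amplified before sequencing. Embryos came from crosses of females homozygous for the reporter line and the conditional Dnmt1 2lox allele with Blimp1-Cre males. Cre is driven by Blimp1 (Prdm1), which PGCs express from early on, and Dnmt1 maintains DNA methylation when cells replicate. At E10.5 there were 3 DCKO libraries, labelled Dnmt1 -/- (2 female, 1 male), and 4 control libraries, labelled wild type (2 of each sex). The E11.5 set held 6 female and 4 male DCKO libraries and 4 control libraries of each sex. The labels name no allele that the controls carry, although the crosses would pass the floxed allele and the reporter on to them, and do not say whether libraries came from separate embryos. The p-values thus measure the spread between these libraries, which may be technical. A further 12 libraries, from E13.5, are not analysed here.

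Between 9125 and 11095 genes reached 1 RPKM in the E10.5 libraries and between 8277 and 13200 in the E11.5 libraries, and the number of reads behind them is unknown. Dnmt1 separated the genotypes, with at most 29.6 RPKM in DCKO and at least 74.1 RPKM in control libraries at E10.5, and at most 59.4 RPKM in DCKO and at least 72.9 RPKM in control libraries at E11.5. Germ cell markers were present throughout: of 13 genes, only Nanos3 was listed at 0 anywhere, in 2 of 18 E11.5 libraries. E11.5 male control 3 stood apart, with the 13 germ cell markers summing to 439 RPKM, against 1977 to 6600 RPKM in the other 7 male libraries, and with the highest mean of somatic markers (4.06 on the log2 scale). Female DCKO 4 (3.43) and male DCKO 1 (2.32) had the next highest somatic means at E11.5. In bulk samples, fewer cells of a type and less RNA per cell cannot be told apart.

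The promoters of Mrpl33, Mrpl20 and Mrps17 are shown because Mrpl33 and Mrpl20 set the family's comparison and Mrps17 had the smallest p among the other members in E11.5 males, and because DNA methylation, which Dnmt1 maintains, is most often studied at promoters. Each runs from 250 bases before to 50 bases after the transcription start that RefSeq annotates on GRCm38.p6, a later build than that of the RPKM tables. Capitals mark the NRF1 core GCGCATGC and the ETS core CCGGAAG. Mrpl33 lies on chromosome 5 (chr5:31613701-31614000, plus strand), Mrpl20 on chromosome 4 (chr4:155802628-155802927, plus strand) and Mrps17 on chromosome 5 (chr5:129715247-129715546, plus strand).
Mrpl33: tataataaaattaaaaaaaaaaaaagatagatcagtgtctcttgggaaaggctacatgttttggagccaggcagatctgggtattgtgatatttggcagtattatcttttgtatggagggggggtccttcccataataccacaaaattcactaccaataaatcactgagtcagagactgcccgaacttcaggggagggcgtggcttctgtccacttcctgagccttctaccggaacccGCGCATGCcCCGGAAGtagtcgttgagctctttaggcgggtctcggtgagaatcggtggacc
Mrpl20: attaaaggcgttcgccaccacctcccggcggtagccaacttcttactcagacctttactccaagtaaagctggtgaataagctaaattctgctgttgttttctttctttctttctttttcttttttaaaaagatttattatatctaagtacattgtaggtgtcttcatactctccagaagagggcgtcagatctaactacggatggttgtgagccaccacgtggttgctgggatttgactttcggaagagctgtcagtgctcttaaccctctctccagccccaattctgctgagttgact
Mrps17: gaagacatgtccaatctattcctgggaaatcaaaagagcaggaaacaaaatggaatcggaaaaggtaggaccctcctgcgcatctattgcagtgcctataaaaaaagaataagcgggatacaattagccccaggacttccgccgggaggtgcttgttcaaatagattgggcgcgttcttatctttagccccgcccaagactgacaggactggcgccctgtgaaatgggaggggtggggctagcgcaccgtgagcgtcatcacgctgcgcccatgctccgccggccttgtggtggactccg

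In Mrpl33 the NRF1 core ended 4 bases before the annotated start, and the ETS core followed 1 base later and ran across the start. The windows of Mrpl20 and Mrps17 held neither motif, nor the YY1 motif AAGATGGCG, on either strand. RefSeq promoters were found for 68 of the 77 members (74 promoters). Of these 68, 8 held the NRF1 core, 25 the ETS core and 8 the YY1 motif, and 35 held any of the 3. By promoter, the ETS core was in 33.8% of member promoters and in 8.86% of all 32851 promoters of the same length. The NRF1 core was in 10.8% of member promoters and 2.71% of all, and the YY1 motif in 10.8% and 1.4%. The member promoters held a median of 21.5 CpG sites per window, against 7 for all promoters. Mrpl33 with 10 and Mrpl20 with 8 were below the family median, and Mrps17 with 17 was closer to it. A motif match is a description of letters and does not show that a factor binds.

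The family was well expressed in PGCs at both stages. The median member had 39.6 RPKM at E10.5 and 32.5 RPKM at E11.5, against 9.17 RPKM for the median of the 11584 genes tested at E10.5 and 7.52 RPKM for the 12667 tested at E11.5. Together the 77 genes made up 0.531% to 0.709% of the summed RPKM of a library at E10.5 and 0.428% to 0.878% at E11.5. The lowest of these shares at E11.5 was in male control 3, the E11.5 library with the lowest sum of germ cell markers, and the 2 highest were in male DCKO 2 and male DCKO 3.

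The order of the members was nearly the same at E10.5 and E11.5. The same 7 genes led at both stages, in the same order: Mrpl42, Mrpl33, Mrpl52, Mrps21, Mrpl23, Mrpl30 and Mrps18c. Mrpl42, a mitochondria-specific protein, had a median of 319 RPKM at E10.5 and 322 RPKM at E11.5. Mrpl33, homologue of a small bacterial protein near the site where tRNA leaves the ribosome, followed with 301 RPKM at E10.5 and 291 RPKM at E11.5. Among the lowest were Mrps34 with 11.53 RPKM at E10.5 and 5.50 RPKM at E11.5, Mrpl35 with 12.2 and 10.1 RPKM, and Mrps25 with 10.2 and 11.503 RPKM. Mrps11 was the lowest at E10.5 with 6.81 RPKM and Mrps23, with 11.3 RPKM, came after Mrps25, while Mrpl19 with 11.97 RPKM and Mrpl1 with 12.1 RPKM were among the 5 lowest at E11.5. Spearman's rho of the 77 medians between the stages was 0.925, and 8 of the 10 lowest members were shared. The stages come from separate tables, so only the order, and not the levels, is compared.

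RPKM divides by transcript length, and the highest members were short. By GENCODE transcripts on GRCm38, the 7 leading genes had transcripts of 418 to 969 nucleotides, against a family median of 1226. Mrpl33, with 478 nucleotides and 65 codons, was the second shortest of the 77, and Mrpl20 had 764 nucleotides and 149 codons. Over the 77 members, Spearman's rho between transcript length and median RPKM was -0.49 in the E10.5 and -0.48 in the E11.5 table, with the members of a table all measured in the same libraries. The lengths that the authors divided by were not given in the sources used here. Neighbouring genes in an expression order such as Mrpl42, with libraries from 69.9 to 517 RPKM at E11.5, and Mrpl33, with 132 to 1327 RPKM, did not separate beyond their spread.

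Mrpl33 RPKM at E11.5 was 957, 863, 505 and 1327 in male DCKO PGCs, against 283, 168, 132 and 205 in male control PGCs. Every male DCKO library was above every male control library, and above every female library of the stage. The male groups averaged 913 ± 338 RPKM in DCKO and 197 ± 64.8 RPKM in control PGCs (SD, n = 4 each), a log2 fold change of 2.18 (SE 0.32). Fold changes throughout are on the log2(RPKM + 1) scale. Among the 77 members Mrpl33 held rank 1 in all 4 male DCKO libraries, and ranks 3, 3, 2 and 7 in the 4 male control libraries. Measured against the mean log2 level of the family in the same library, it stood 5.10, 4.07, 3.29 and 5.49 higher in male DCKO PGCs and 2.70, 2.37, 2.51 and 2.84 higher in male control PGCs. The groups did not overlap on this scale either. These male values are what singled out Mrpl33, and they carry no test.

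In females, Mrpl33 did not show this separation. Female DCKO libraries had 379, 429, 266, 290, 292 and 447 RPKM (lowest 266, median 336, highest 447), against 452, 212, 286 and 287 RPKM in female control libraries. The groups overlapped over most of their range, and the highest value was a control. The means were 350 ± 78.1 RPKM in female DCKO libraries (SD, n = 6), against 309 ± 102 RPKM in female control libraries (SD, n = 4). By limma the log2 fold change was 0.20 (SE 0.30) with an adjusted p of 1. The exact two-sided permutation p was 0.424 over 210 splits, of which the smallest possible is 0.00476. The female values may have entered the choice of the gene through the comparison of the sexes, so neither p is an independent test. The difference between the sexes in the genotype effect, female minus male, was -1.98 (SE 0.44), given without a test because it contains the male values.

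At E10.5, Mrpl33 pointed the other way without passing a test. The female DCKO libraries had 392.2 and 231 RPKM and the male DCKO library had 100.1 RPKM, against 397 and 324 RPKM in female and 286 and 301 RPKM in male control libraries. The male DCKO library was the lowest of the 7, and the female DCKO libraries overlapped the controls. The means were 241 ± 146 RPKM in DCKO libraries (SD, n = 3), against 327 ± 49.3 RPKM in control libraries (SD, n = 4). By limma the log2 fold change was -0.77 (SE 0.38) with an adjusted p of 0.991. The exact two-sided permutation p was 0.229 over 35 splits, with 0.0286 the smallest possible. With the 4 permutation tests of Mrpl33 and Mrpl20 adjusted together by Benjamini-Hochberg, its values were 0.565 in E11.5 females and 0.457 at E10.5.

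Mrpl33 overlaps Rbks (ribokinase) on the opposite strand in GENCODE, and whether the authors counted by strand was not given in the sources used here. Rbks had 0, 1.06, 0.282 and 3.18 RPKM in male DCKO PGCs, against 1.48, 3.46, 1.36 and 5.38 RPKM in male control PGCs. Its log2 fold change in males was -0.98 (SE 0.60) with a limma adjusted p of 0.766. At E10.5, Rbks had 22.8 and 4.64 RPKM in female and 11.6 RPKM in male DCKO libraries, against 0.366 and 3.08 RPKM in female and 0 and 2.51 RPKM in male control libraries. Whether the overlap has a part in the Mrpl33 values was not tested. A second overlapping gene, the processed transcript Gm43809, lies on the same strand. In GENCODE, 41 of the 77 members overlap another gene, whereas Mrpl20 and Mrps17 do not.

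**Figure D1:**
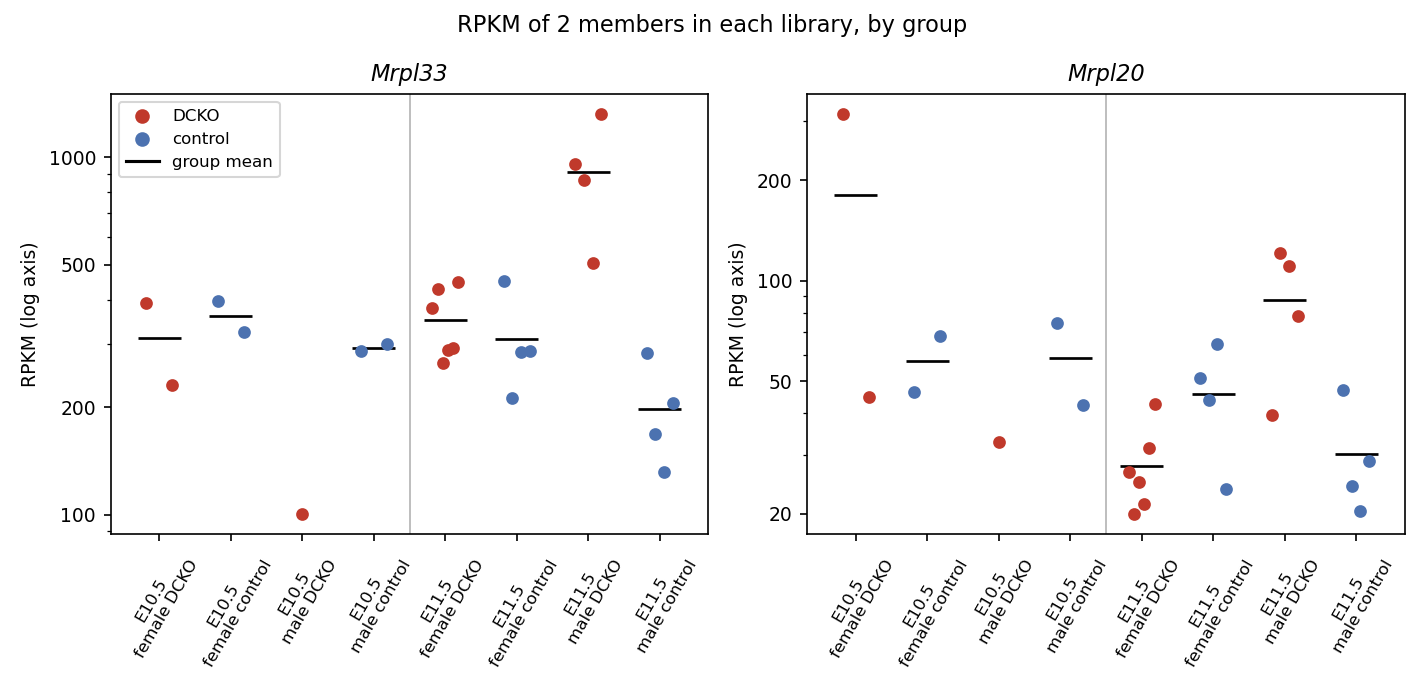
RPKM on a log axis of Mrpl33 (left) and Mrpl20 (right) in each of the 25 libraries, by stage, sex and genotype; points are libraries, red for DCKO and blue for control, and bars are group means (none for the single E10.5 male DCKO library). Among the E11.5 libraries the 4 male DCKO ones lie highest for Mrpl33, from 505 to 1327 RPKM, and among the E10.5 libraries 1 female DCKO library lies highest for Mrpl20, with 317 RPKM.

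Mrpl20, homologue of a bacterial protein that binds ribosomal RNA early in assembly of the large subunit, was higher in most but not all E11.5 male DCKO libraries. It had 39.6, 121, 110 and 78.3 RPKM in male DCKO PGCs, against 47.1, 24.3, 20.4 and 28.9 RPKM in male control PGCs. Male DCKO 1 was below male control 1, so the groups overlapped. The means were 87.3 ± 36.6 RPKM in DCKO and 30.2 ± 11.8 RPKM in control PGCs (SD, n = 4 each), a log2 fold change of 1.45 (SE 0.40). Relative to the family mean of the same library it stood at 0.54, 1.25, 1.11 and 1.42 in male DCKO PGCs and at 0.14, -0.38, -0.13 and 0.05 in male control PGCs, without overlap. That separation depends on the use of the mean. In male DCKO 1 the small subunit members averaged 4.06 on the log2 scale, against 5.22 for the large. Relative to the family median (5.03 in male DCKO 1, 5.21 in male control 1), male DCKO 1 was again below male control 1. Like those of Mrpl33, these male values chose the gene and carry no test.

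In females, Mrpl20 leaned the other way. It had 26.8, 19.9, 24.9, 21.4, 31.5 and 42.9 RPKM in female DCKO PGCs (lowest 19.9, median 25.8, highest 42.9), against 51.0, 44.0, 64.5 and 23.7 RPKM in female control PGCs. Of the 4 controls, 3 were above every DCKO library and the fourth lay among the lower DCKO libraries. The means were 27.9 ± 8.40 RPKM in female DCKO libraries (SD, n = 6), against 45.8 ± 17.0 RPKM in female control libraries (SD, n = 4). By limma the log2 fold change was -0.66 (SE 0.37) with an adjusted p of 1. The exact two-sided permutation p was 0.081, or 0.324 adjusted over the 4 tests, so this difference did not pass. As for Mrpl33, the female values may have entered the choice of the gene, so a lean away from the males is not independent of it. The female minus male difference of the genotype effect was -2.11 (SE 0.55), again without a test.

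At E10.5, Mrpl20 was dominated by 1 library. Female DCKO 1 had 317 RPKM, while female DCKO 2 had 45.0 and the male DCKO library 32.8 RPKM, against 46.3 and 68.3 RPKM in female and 74.8 and 42.4 RPKM in male control libraries. Apart from female DCKO 1 the groups overlapped. By limma the log2 fold change was 0.34 (SE 0.70) with an adjusted p of 0.991, and -0.54 without female DCKO 1. The exact two-sided permutation p was 0.829.

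Over the 18 E11.5 libraries, with group means removed, no member tracked Mrpl33 closely. The most similar were Mrpl46 (Pearson r = 0.45), Mrpl36 (0.43) and Mrpl15 (0.43). For Mrpl20 they were Mrps24 (0.79), Mrpl12 (0.69) and Mrps12 (0.67). Mrpl33 and Mrpl20 correlated with each other at 0.14, and the median over all pairs of members was 0.09. These correlations describe libraries that share depth and quality, and no p is attached.

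Before the rest of the family is compared, 3 E11.5 libraries need naming, because the members were uneven in them. The mean log2 level of large subunit members minus that of small subunit members was 1.16 in male DCKO 1, 0.98 in male DCKO 4 and 1.16 in male control 4, whereas it lay between -0.28 and 0.31 in the other 15 libraries. These 3 were the E11.5 libraries with the fewest genes at 1 RPKM or more, with 9668 in male DCKO 1, 8607 in male DCKO 4 and 8277 in male control 4. In male DCKO 1, 21 members were at least 2-fold above and 25 at least 2-fold below their own median over the 18 libraries. Male control 4 had 20 above and 25 below, and male DCKO 4 had 15 above and 16 below. At E10.5 the largest differences between subunits, 0.60 in male control 1 and 0.55 in female DCKO 1, were also in the libraries with the fewest genes (9125 and 9412).

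**Figure D2:**
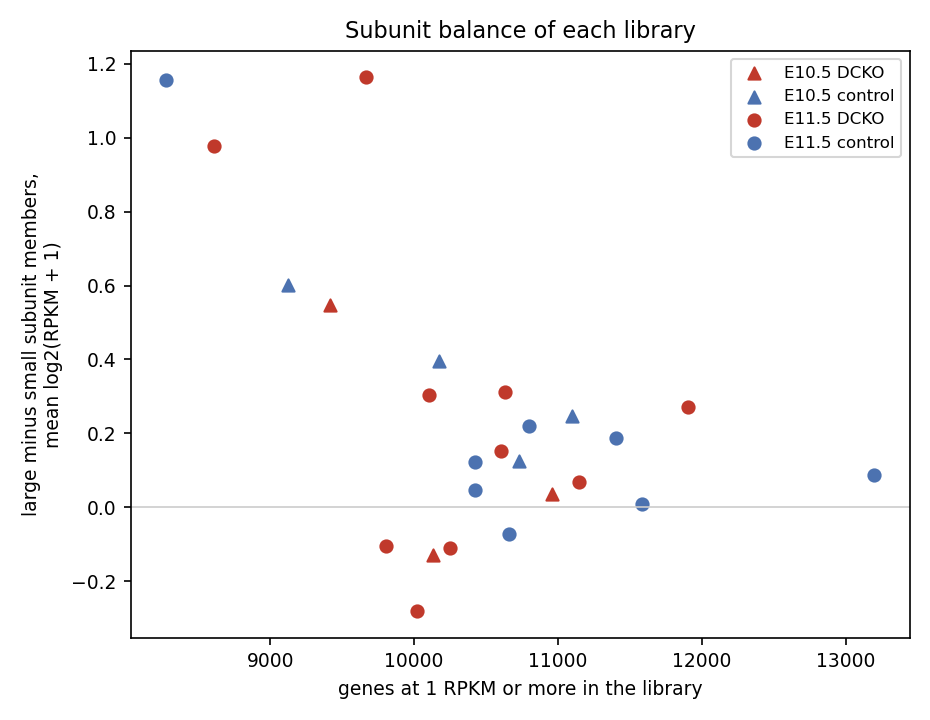
Mean log2(RPKM + 1) of large subunit members minus that of small subunit members (vertical axis) against the genes at 1 RPKM or more (horizontal axis), 1 point per library, red for DCKO and blue for control, triangles for E10.5 and circles for E11.5. The 3 libraries near or above 1 are male DCKO 1, male DCKO 4 and male control 4 at E11.5.

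A few members were listed at 0 in single libraries although their stage median was at least 5 RPKM. At E11.5 these were Mrpl55 in female DCKO 6, Mrps28 in male DCKO 4, and Mrps11, Mrps16 and Mrps34 in male control 4. At E10.5 Mrps34 was listed at 0 in female DCKO 1. Some of these members were low elsewhere too: Mrpl55 was under 1 RPKM in E11.5 male control 4, and Mrps34 had 2.58 RPKM in E10.5 female control 2. Of the 6 cases listed at 0, 5 were in the 2 libraries of their stage with the fewest genes at 1 RPKM or more. Without read counts, a 0 may be a failed estimate.

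The mean log2 level of the 77 members did not separate the genotypes. At E11.5 it was 5.38, 5.15, 5.22, 4.72, 5.25 and 5.06 in female DCKO libraries (lowest 4.72, median 5.18, highest 5.38), against 5.46, 5.26, 5.18 and 5.20 in female control libraries. In males it was 4.81, 5.69, 5.69 and 4.89 in DCKO libraries, against 5.45, 5.04, 4.55 and 4.85 in control libraries. Male DCKO 2 and 3 were the highest of the stage, the 2 uneven male DCKO libraries lay within the range of the male controls, and both pairs of groups overlapped. The E10.5 means were 5.43 and 5.39 in female and 5.14 in male DCKO libraries, against 5.36 and 5.42 in female and 5.26 and 5.42 in male control libraries, overlapping again.

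**Figure D3:**
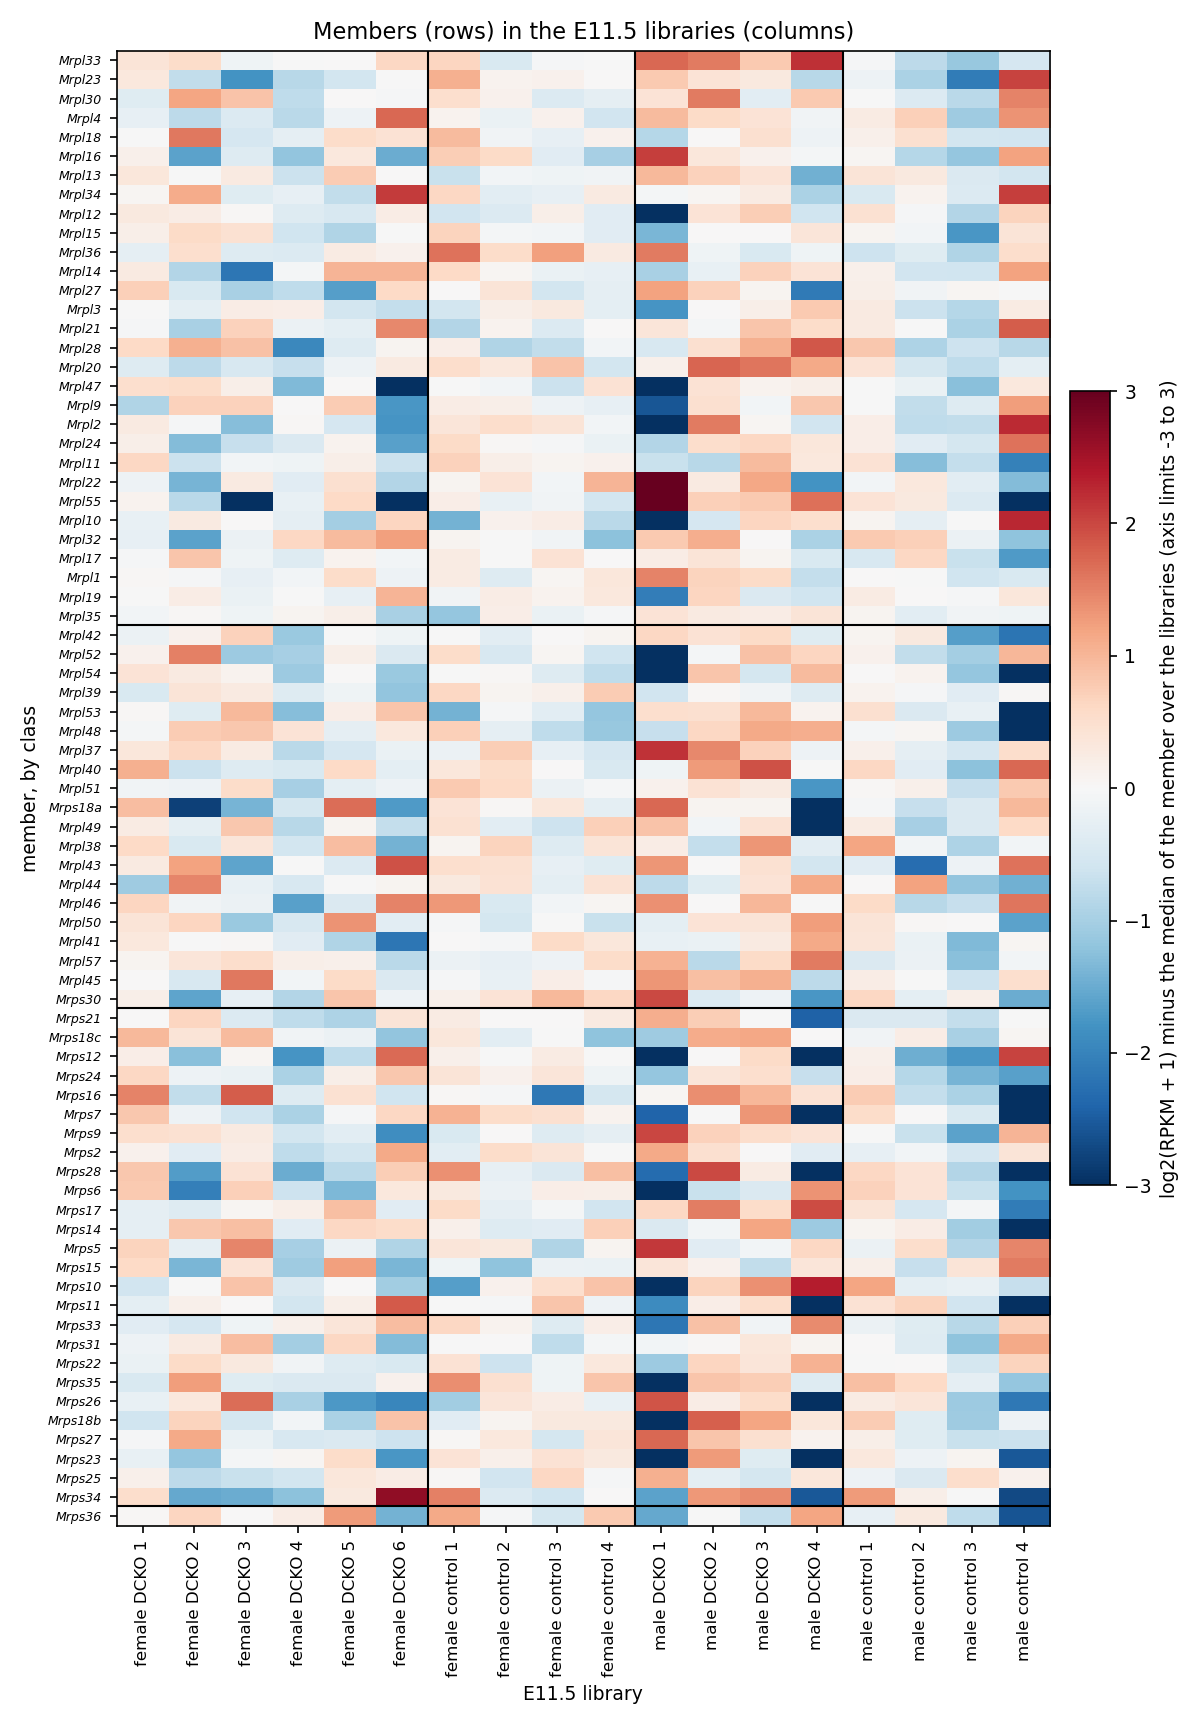
The 77 members (rows, by class from top to bottom: large subunit with a bacterial homologue, large subunit specific to mitochondria, small subunit with a bacterial homologue, small subunit specific to mitochondria, Mrps36) in the 18 E11.5 libraries (columns, by sex and genotype); colour is log2(RPKM + 1) minus the member's median over the libraries, cut at -3 and 3. Male DCKO 1, male DCKO 4 and male control 4 hold the strongest blues and reds in either direction, and male DCKO 2 and 3 are mostly red.

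In E11.5 males, more members were higher in DCKO than lower. The log2 fold change was above 0 for 52 of 77 members, with a median of 0.21, against 43.6% of all genes tested and an overall median of -0.10. Without Mrpl33 and Mrpl20 it was above 0 for 50 of the other 75 members, also with a median of 0.21. At an unadjusted limma p under 0.05, 12 members were higher in DCKO males and 0 were lower, where 2.74% of all genes were higher and 4.21% lower by the same measure (6.95% in either direction). Mrpl33 and Mrpl20 were chosen on these values and carry no test, which leaves 10 of the other 75 members higher and 0 lower. The 12, with that pair, were Mrpl20, Mrpl33, Mrpl37, Mrpl42, Mrpl48, Mrpl53, Mrpl55, Mrpl57, Mrps9, Mrps16, Mrps17 and Mrps27, 8 of the large and 4 of the small subunit. After Benjamini-Hochberg adjustment over all genes, 1 member passed 0.05, where 0.00789% of all genes were called as higher and 0.0316% in either direction. That member was Mrpl33, the gene singled out by this contrast, so nothing is read from the count. It also became 0 when male DCKO 2, male DCKO 4, male control 2 or male control 3 was left out. The median over the members was 0.0922 without male control 3, 0.37 without male DCKO 1, 0.46 without male control 1 and 0.54 without male DCKO 4.

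The groups did not overlap for 4 members, all higher in DCKO males, where 0.845% of all genes were separated in this direction, and for 0 members in the lower direction, where 1.49% of all genes were. Besides Mrpl33, which was chosen on these values, these were Mrpl55, Mrps17 and Mrpl35, 3 of the 75 members outside the pair. Mrps17, a small subunit protein whose bacterial homologue binds ribosomal RNA early in assembly, had 53.8, 102, 50.4 and 136 RPKM in male DCKO PGCs, against 45.5, 23.9, 33.1 and 7.21 RPKM in male control PGCs. Its lowest DCKO value was close to the highest control value, and limma gave a log2 fold change of 1.73 (SE 0.49) with an adjusted p of 0.611. Mrpl35, a large subunit protein, differed least, with 13.8, 12.5, 11.9 and 13.4 RPKM in male DCKO PGCs, against 10.7, 7.98, 9.30 and 9.10 RPKM in male control PGCs (log2 fold change 0.44, SE 0.39, limma adjusted p = 0.852).

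Mrpl55, a large subunit protein, had the largest fold change of the family in males, 2.41 (SE 1.01, limma adjusted p = 0.672). It had 194, 36.1, 37.9 and 70.4 RPKM in male DCKO PGCs, against 29.4, 26.6, 16.1 and 0.785 RPKM in male control PGCs. The highest DCKO and the lowest control value were both in libraries uneven in the subunits. Mrps16, a small subunit protein, came next with 2.37 (SE 0.98, limma adjusted p = 0.672). It had 52.0, 133, 102 and 68.2 RPKM in male DCKO PGCs, against 86.0, 30.0, 25.3 and 0 RPKM in male control PGCs, so its groups overlapped and its fold change includes a value listed at 0.

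The largest negative fold changes in males rested on the uneven libraries. Mrps12, part of the decoding centre of the small subunit, had 1.07, 102, 149 and 1.93 RPKM in male DCKO PGCs, against 111, 36.04, 29.2 and 411 RPKM in male control PGCs. The 2 low DCKO values and the highest control value were in male DCKO 1, male DCKO 4 and male control 4, and the remaining libraries overlapped (log2 fold change -2.28, SE 1.17, limma adjusted p = 0.74). Mrpl10, which forms the base of the stalk that binds translation factors, had 0.532, 13.54, 31.6 and 28.6 RPKM in male DCKO PGCs, against 20.8, 16.2, 19.4 and 98.9 RPKM in male control PGCs (log2 fold change -1.29, SE 0.79, limma adjusted p = 0.766). Mrps23 (-1.11, SE 0.93) and Mrps35 (-0.95, SE 0.90), both specific to mitochondria, followed with limma adjusted p of 0.842 and 0.864. Mrps35 turned to 0.37 without male DCKO 1.

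Leaving out all 3 uneven libraries, a choice made after seeing the data, left 2 male DCKO and 3 male control libraries. Both DCKO libraries left, male DCKO 2 and 3, carry title number 89, as do male control 1 and 2. The counts below therefore rest on DCKO libraries of a single title number, and the labels do not say what it marks. Without those 3 libraries, 71 of 77 members, the pair counted, were above 0, with a median of 0.62, against 42.3% of all genes. At an unadjusted limma p under 0.05, 14 members, the pair counted, were higher and 0 lower, where 2.39% and 4.02% of all genes were, and 0 passed the adjusted threshold. For 32 members, the pair counted, the groups did not overlap with DCKO higher, where 9.92% of all genes were separated in that direction. One of the 3 controls left was male control 3, which was lowest in summed germ cell markers and lowest in the family mean. Without male DCKO 1, male control 3 and female DCKO 4, the libraries highest in somatic markers, 47 of 77 members, the pair counted, were above 0 in males with a median of 0.24, against 47.4% of all genes. At an unadjusted p under 0.05, 7 members, the pair counted, were then higher and 0 lower, where 3.08% and 4.36% of all genes were.

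Most markers of other cell types had male fold changes below 0, but the sums of every list overlapped between the male groups. The 8 mesenchymal genes summed to 438, 4.87, 10.3 and 1.76 RPKM in male DCKO libraries, against 118, 58.2, 863 and 29.7 RPKM in male control libraries. In male fold changes, 0 of 8 mesenchymal, 0 of 6 endothelial, 0 of 4 erythroid, 1 of 3 macrophage and 1 of 7 gonadal somatic genes tested were above 0, against 8 of 13 germ cell genes. Erythroid genes summed to 0 to 10.6 RPKM in male DCKO and to 4.24 to 2227 RPKM in male control libraries. Gonadal somatic genes summed to 1.9 to 115 RPKM in male DCKO and to 11.6 to 117 RPKM in male control libraries, and Foxl2 was at 0 in all 8. Macrophage genes summed to at most 12.2 RPKM in male DCKO and at most 42.0 RPKM in male control libraries, and endothelial genes to 37.8 to 131 RPKM in male DCKO and 56.4 to 180 RPKM in male control libraries. Among the endothelial genes Pecam1 averaged 5.79 on the log2 scale over the E11.5 libraries, and the others 1.04 (Esam) to 2.51 (Cdh5). An endothelial sum therefore need not reflect the genes other than Pecam1. The 13 germ cell markers summed to 1977 to 5573 RPKM in male DCKO and 439 to 6600 RPKM in male control libraries. The part of these differences in the male values of the family was not tested.

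In E11.5 females, the members were not shifted upward. The log2 fold change was above 0 for 29 of 77, with a median of -0.13, against 47.8% of all genes and an overall median of -0.01. The median was -0.04 without female DCKO 4 or without female control 1 and -0.07 without female DCKO 6. By limma 0 members passed the adjusted threshold in either direction, where 0.00789% of all genes were called. At an unadjusted p under 0.05, 0 members were higher and 2 lower in DCKO females, where 0.553% and 1.62% of all genes were (2.17% in either direction). No member had groups that did not overlap, where 0.371% of all genes were separated as higher and 0.845% as lower.

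The 2 members were Mrpl36 and Mrpl39. Mrpl36, homologue of the smallest bacterial large subunit protein, had 41.9, 72.4, 38.8, 38.2, 60.5 and 56.1 RPKM in female DCKO PGCs (lowest 38.2, median 49.0, highest 72.4), against 160, 75.5, 122 and 61.8 RPKM in female control PGCs. Only the highest DCKO library exceeded the lowest control (log2 fold change -0.96, SE 0.40, limma adjusted p = 1). For Mrpl39, a mitochondria-specific protein, it was -0.65 (SE 0.30). The other large negative values were Mrpl55 at -1.15 (SE 0.93), listed at 0 in female DCKO 6, Mrpl23 at -0.94 (SE 0.59) and Mrpl2 at -0.85 (SE 0.75). Mrpl23 lies at the exit of the nascent peptide and Mrpl2 close to the peptidyl transferase centre. The largest positive values were Mrps16 at 1.00 (SE 0.89), Mrpl53 at 0.80 (SE 0.59), Mrpl48 at 0.69 (SE 0.54) and Mrpl32 at 0.45 (SE 0.57). All had limma adjusted p = 1. In the same contrast 6 of 8 mesenchymal, 6 of 6 endothelial, 4 of 4 erythroid, 4 of 7 gonadal somatic, 0 of 3 macrophage and 3 of 13 germ cell genes tested were above 0, and their part in the values of the members was not tested.

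**Figure D4:**
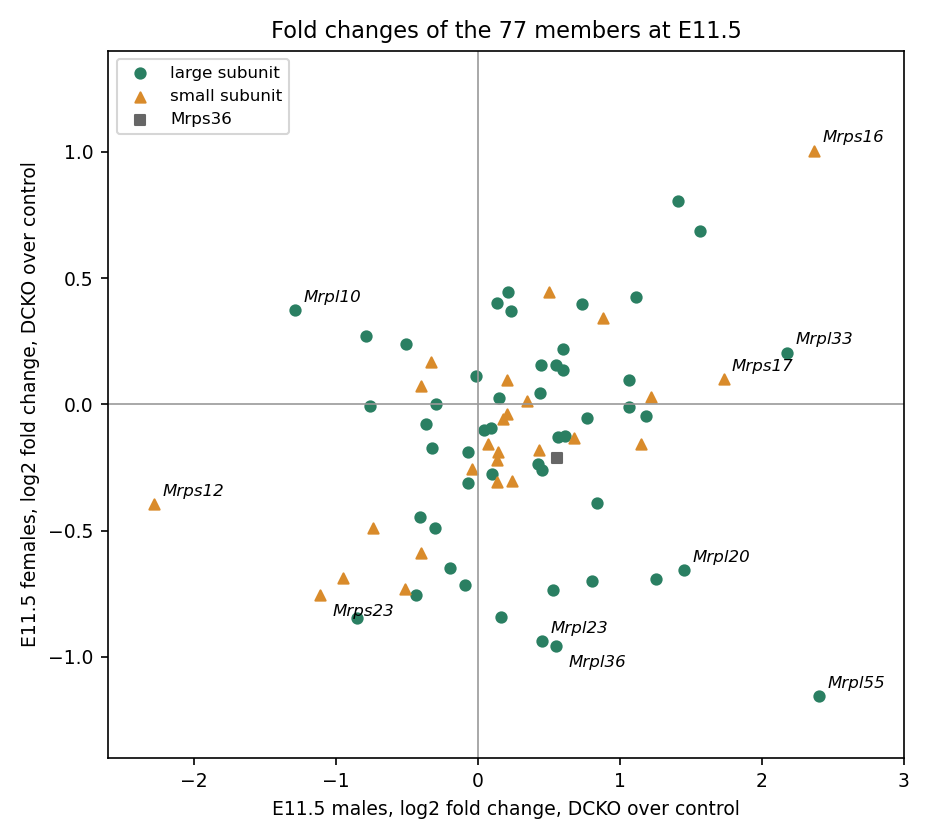
Log2 fold change, DCKO over control, of the 77 members in E11.5 males (horizontal axis) and E11.5 females (vertical axis); circles are large subunit, triangles small subunit members and the square is Mrps36. Mrpl33 lies at 2.18 in males and 0.20 in females, Mrpl20 at 1.45 and -0.66, and Mrpl55 at 2.41 and -1.15.

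The female minus male difference of the genotype effect was below 0 for 59 of 77 members, with a median of -0.36, against an overall median of 0.08. Without Mrpl33 and Mrpl20 it was below 0 for 57 of the other 75, with a median of -0.34. With the 3 uneven libraries left out, the median of the members was -0.86. It was -0.58 without male DCKO 1 and -0.57 without male control 1. By limma 0 members passed the adjusted threshold, where 0 of 12667 genes (0%) did. At an unadjusted p under 0.05, 0 were above and 6 below 0, where 1.78% and 1.8% of all genes were (3.58% in either direction). Mrpl33 and Mrpl20, which this contrast had helped to choose, carry no test in it, which leaves 4 of the other 75 members below 0. These were Mrpl55, Mrps17, Mrpl36 and Mrps27, the last a protein that binds mitochondrial RNA. The largest positive values were Mrps12 (1.88, SE 1.58), Mrpl10 (1.66, SE 1.06), Mrpl12 (1.06, SE 0.87) and Mrpl19 (0.75, SE 0.64), and Mrpl22 (-1.95, SE 1.09) was the most negative after Mrpl55 (-3.56, SE 1.37), Mrpl20 and Mrpl33.

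Averaged over the sexes, 42 of 77 members were above 0 at E11.5, with a median of 0.06, against 45% of all genes and an overall median of -0.06. Without Mrpl33 and Mrpl20, 40 of the other 75 were above 0, with a median of 0.05. Without the 3 uneven libraries, 62 of 77 were above 0 with a median of 0.26, against 41.4% of all genes and an overall median of -0.10. Leaving out 1 library moved the median to between -0.05 (male control 3) and 0.18 (male DCKO 1). By limma 0 members passed the adjusted threshold, where 0.0237% of all genes were called. Without male DCKO 3 or without male control 1 the count was 1, and the member was Mrpl33, so nothing is read from it. At an unadjusted p under 0.05, 5 members were higher (Mrps16, Mrpl48, Mrpl53, Mrps17 and Mrpl33, the last without a test, so 4 of the other 75) and 0 lower, where 1.73% and 3.73% of all genes were (5.46% in either direction). Mrps16 (1.69, SE 0.66) had the largest value, and Mrpl33 followed (1.19, SE 0.22), again as a description. No member had groups that did not overlap, where 0.00789% of all genes were separated as higher and 0.0316% as lower. Mrpl48 and Mrpl53, both large subunit proteins specific to mitochondria, stood at 1.12 (SE 0.40) for Mrpl48 and 1.11 (SE 0.44) for Mrpl53 on the log2 scale, each with a limma adjusted p of 0.902. The lowest values were Mrps12 (-1.34, SE 0.79), Mrps23 (-0.93, SE 0.63), Mrpl2 (-0.85, SE 0.56) and Mrps35 (-0.82, SE 0.61).

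At E10.5, the family as a whole lay where other genes lay. The log2 fold change was above 0 for 35 of 77 members, with a median of -0.07, against 46.8% of all genes and an overall median of -0.05. By limma 0 members passed the adjusted threshold, where 0 of 11584 genes (0%) did. At an unadjusted p under 0.05, 0 were higher and 1 lower, where 1.49% and 1.6% of all genes were (3.09% in either direction). The groups did not overlap for 2 members with DCKO higher, where 2.28% of all genes were separated, and for 4 members with DCKO lower, where 2.87% were. The median of the members was 0.17 without the male DCKO library and 0.03 without male control 2.

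The member lower at an unadjusted p under 0.05 was again Mrpl36. It had 22.3 and 41.7 RPKM in female and 26.4 RPKM in male DCKO libraries, against 50.5 and 57.5 RPKM in female and 50.3 and 72.2 RPKM in male control libraries. All 3 DCKO libraries were below all 4 controls, and limma gave a log2 fold change of -0.94 (SE 0.39) with an adjusted p of 0.991. In GENCODE, Mrpl36 lies across Ndufs6 on the opposite strand. Ndufs6 had 681 and 414 RPKM in female and 363 RPKM in male DCKO libraries, against 313 and 443 RPKM in female and 339 and 352 RPKM in male control libraries. Whether Ndufs6 has a part in the Mrpl36 values was not tested. The other members that were lower in DCKO, without overlap of the groups, were Mrpl30 (-0.80, SE 0.42), Mrpl9 (-0.77, SE 0.45) and Mrps33 (-0.64, SE 0.35). Mrpl12, the stalk protein that contacts translation factors, was higher without overlap, with 90.0 and 81.8 RPKM in female and 101 RPKM in male DCKO libraries, against 40.9 and 71.4 RPKM in female and 13.2 and 63.3 RPKM in male control libraries (log2 fold change 1.10, SE 0.57, limma adjusted p = 0.991). Mrpl38, specific to mitochondria, was the other (1.07, SE 0.52). Further large values were Mrps17 (1.02, SE 0.95), Mrps18c (0.95, SE 0.45), Mrpl22 (-1.78, SE 0.84), Mrpl14 (-1.59, SE 0.97), Mrpl54 (-1.08, SE 0.48) and Mrps30 (-1.01, SE 0.52), all with a limma adjusted p of 0.991. Mrpl22 lines the exit tunnel for the nascent peptide.

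**Figure D5:**
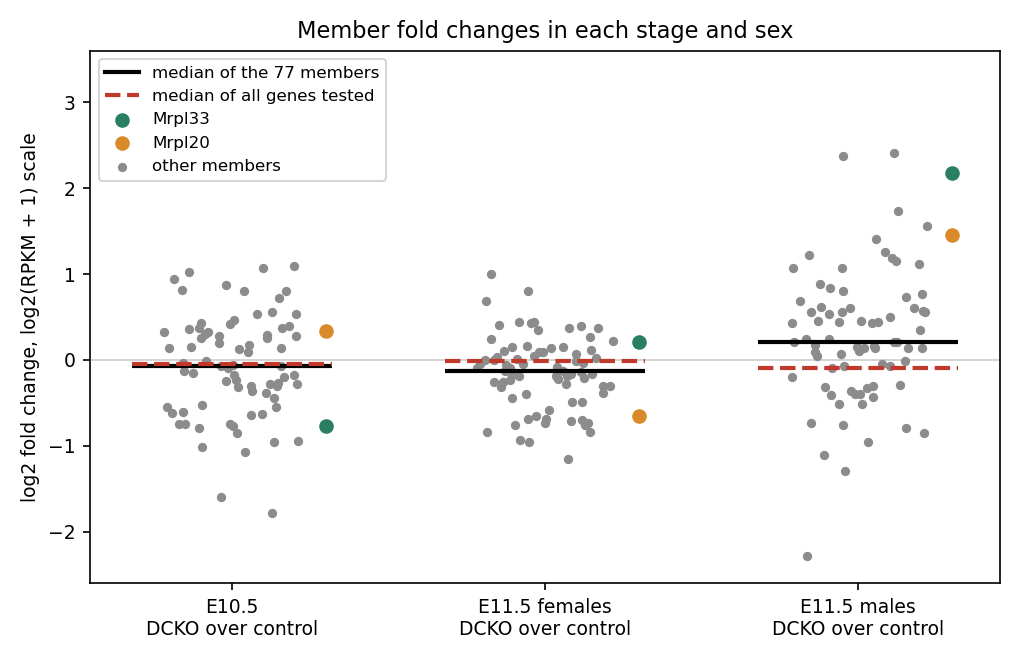
Log2 fold change, DCKO over control, of each of the 77 members (points) at E10.5, in E11.5 females and in E11.5 males; black bars are the medians of the members (-0.07, -0.13 and 0.21), dashed red bars the medians of all genes tested (-0.05, -0.01 and -0.10), and coloured points mark Mrpl33 and Mrpl20. In E11.5 males the members range from -2.28 to 2.41.

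Between the control sexes at E11.5, 53 of 77 members were higher in females, with a median log2 difference of 0.26, against 53.4% of all genes and an overall median of 0.05. Mrpl33 and Mrpl20, in whose choice males were also compared with females, are counted here. Of the other 75 members, 51 were higher in females, with a median of 0.23. Without male control 3, the library highest in somatic markers, 41 of 77, the pair counted, were higher in females with a median of 0.08, against 57.8% of all genes and an overall median of 0.12. The median was 0.39 without male control 1 and 0.0053 with library weights. By limma 0 members passed the adjusted threshold, where 0.00789% of all genes were called. At an unadjusted p under 0.05, 3 were higher in females and 0 lower, where 1.68% and 0.671% of all genes were (2.35% in either direction). These were Mrpl36 (1.27, SE 0.44), Mrpl11 (1.17, SE 0.50), a protein of the factor-binding stalk base, and Mrps24 (1.11, SE 0.46), all with a limma adjusted p of 1. Mrps21 was the member without overlap, higher in females, where 1.85% of all genes were separated in that direction and 0.884% in the other. Its values were 222, 188, 188 and 225 RPKM in female control PGCs, against 138, 139, 113 and 187 RPKM in male control PGCs. Mrps7 had the largest difference at 1.58 (SE 1.04) and Mrps28 stood at 1.22 (SE 1.17), whereas Mrpl10 (-0.98, SE 0.79), Mrps15 (-0.79, SE 0.59), Mrpl21 (-0.58, SE 0.53) and Mrpl4 (-0.44, SE 0.51) were the lowest in females. All 13 germ cell markers were higher in control females than in control males (median log2 difference 0.90), and the part of this in the difference of the members was not tested. In the same contrast 0 of 8 mesenchymal, 0 of 6 endothelial, 0 of 4 erythroid, 1 of 3 macrophage and 1 of 7 gonadal somatic genes were higher in females. The control sexes share their libraries with the genotype comparisons.

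By subunit, the male fold changes were above 0 for 34 of 50 large subunit members, with a median of 0.43, and for 17 of 26 small subunit members, with a median of 0.16. In females they were above 0 for 20 of 50 large (median -0.09) and 9 of 26 small subunit members (median -0.16). At E10.5 they were above 0 for 23 of 50 large (median -0.18) and 12 of 26 small subunit members (median -0.05). Within the large subunit in males, 15 of 20 mitochondria-specific members were above 0 (median 0.49), against 19 of 30 with a bacterial homologue (median 0.18). Mrpl33 and Mrpl20, chosen on their male values, are counted among these 30 and among the 50. No difference between these classes was tested. The male values of both subunits include the 3 uneven libraries, where large minus small was 1.16 (male DCKO 1), 0.98 (male DCKO 4) and 1.16 (male control 4). It was -0.11 and 0.15 in male DCKO 2 and 3, and 0.01, 0.05 and 0.09 in male control 1, 2 and 3. The part of the uneven libraries in the medians by subunit was not tested. Spearman's rho of the male fold change with transcript length was -0.04 over the 77 members, and with GC content -0.26.

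Other genes of mitochondrial translation were followed as lists of 6 ribosomal proteins with other symbols, 17 translation factors, 21 assembly factors, 18 tRNA synthetases and 10 regulators of mitochondrial biogenesis. Of these, Lars2 among the synthetases and Ppargc1a and Ppargc1b among the regulators did not pass the expression minimum, which left 17 and 8 tested. By limma 0 genes of these lists passed the adjusted threshold in any of the 6 contrasts. In E11.5 males, 5 of 6 ribosomal proteins with other symbols were above 0 (median 0.48), and 2 of them had an unadjusted p under 0.05, where 6.95% of all genes did. They were Gadd45gip1, a mitochondrial ribosomal protein also known as CRIF1 (1.28, SE 0.52, limma adjusted p = 0.672), and Ict1, a peptidyl-tRNA hydrolase built into the large subunit (1.86, SE 0.82, limma adjusted p = 0.687). Ict1 was 0.542 RPKM in male control 4, a library uneven in the subunits, against 26.23 to 58.17 RPKM in the other male controls. The male DCKO libraries, from 30.96 to 91.01 RPKM, overlapped those other controls, and the fold change of Ict1 includes the low value. The translation factors were above 0 in 10 of 17 (median 0.03), the assembly factors in 9 of 21 (median -0.10), the tRNA synthetases in 8 of 17 (median -0.16) and the regulators in 4 of 8 (median 0.00). Their members with the smallest p in males were the elongation factor Gfm2 (-1.43, SE 0.73), the small subunit assembly factor Rbfa (-2.44, SE 0.90), the arginyl-tRNA synthetase Rars2 (1.85, SE 0.60) and Tfam, which packages mitochondrial DNA (-0.59, SE 0.48). Their limma adjusted p were 0.74, 0.652, 0.624 and 0.835, and Rbfa (0.0140) and Rars2 (0.00639) had an unadjusted p under 0.05.

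In E11.5 females the same lists stood at 4 of 6, 3 of 17, 9 of 21, 6 of 17 and 4 of 8 above 0, in that order. Their members with the smallest p were Gadd45gip1 (0.56, SE 0.48), the release factor Mtrf1 (-1.17, SE 0.66), the rRNA methyltransferase Tfb1m (-0.98, SE 0.56), the alanyl-tRNA synthetase Aars2 (-1.47, SE 0.66) and Polrmt, the mitochondrial RNA polymerase (-1.75, SE 0.66), all with a limma adjusted p of 1. At E10.5 they stood at 3 of 6, 9 of 17, 8 of 21, 11 of 17 and 5 of 8, with the small subunit GTP-binding protein Dap3 (-0.94, SE 0.63), the elongation factor Tufm (-1.08, SE 0.73), the GTPase Mtg2 (1.97, SE 0.75), the cysteinyl-tRNA synthetase Cars2 (0.85, SE 0.51) and Polrmt (1.18, SE 0.74) having the smallest p and a limma adjusted p of 0.991. The factors whose motifs were searched did not pass the threshold in males, with Nrf1 at -0.37 (SE 0.84), Gabpa at 0.04 (SE 0.35) and Yy1 at 0.64 (SE 0.61), and limma adjusted p of 0.961, 1 and 0.865.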

How the data were processed

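The authors deposited 1 table per stage in RPKM, with 1 column per library and 24318 genes. The submitters' processing notes name the build mm9, TopHat2 2.1.0, Cufflinks 2.2.1 and Cuffdiff, without saying which made the tables. Gene models and lengths were not given in the sources used here. Low values did not fall on multiples of 1 read: no ratio between 2 libraries was shared by more than 1.03% of low genes, so depth is unknown.

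From these values log2(RPKM + 1) was tested with limma 3.58.1 in R 4.3.3 (intensity trend, two-sided) on every gene averaging 1 RPKM or more, with Benjamini-Hochberg adjustment over all genes and a threshold of 0.05. E11.5 was fitted as 4 group means and E10.5 with terms for genotype and sex, each within its own table. Single genes had exact permutations of all splits. The code of the fit was checked on simulated data with less noise than these libraries and planted changes far larger than the family medians. That check does not show how sensitive the tests are here. The members and all lists were chosen with earlier results of these data known. Members named were Mrpl33 and Mrpl20, those past the threshold, the 4 highest and 4 lowest fold changes per contrast, the 5 highest and 5 lowest medians per stage, those listed at 0 with a stage median of at least 5 RPKM, the 3 most correlated with Mrpl33 and with Mrpl20, and the smallest p of each other list. Other members named were chosen after their values were seen. No libraries were identical. Promoters come from RefSeq (GRCm38.p6) and lengths and overlaps from GENCODE M21.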

Additional observations from a re-analysis of the deposited data

Results flagged for a closer look

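A library was picked out where its gap to the nearest library of its group exceeded Dixon's 95% critical value for the group's size. The 15 members examined were those named for E11.5 males or females, most of them for large fold changes. Such members favour extreme single values, so no chance rate is given. In all, 70 groups of 4 or 6 libraries were examined and 8 were picked out. Male control 4 at E11.5 was picked out in 3 of them. Its Mrpl10 was 98.9 RPKM, against 16.2 to 20.8 RPKM in the other 3 male controls, its Mrpl2 was 153 RPKM, against 18.3 to 36.1 RPKM, and its large minus small subunit mean was 1.16 on the log2 scale, against 0.01 to 0.09. In male DCKO 1, Mrpl36 was 153 RPKM, against 36.9 to 46.5 RPKM in the other 3 male DCKO libraries. Both libraries are among the 3 that were uneven in the subunits.

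In females, Mrps12 was 332 RPKM in DCKO 6, against 28.7 to 115 RPKM in the other 5 DCKO libraries. Mrps17 was 64.7 RPKM in female DCKO 5, against 25.9 to 38.7 RPKM in the others, and Mrps35 was 77.4 RPKM in female DCKO 2, against 23.2 to 35.4 RPKM. Mrpl23 was 301 RPKM in female control 1, against 146 to 158 RPKM in the other 3 female controls.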

How the results depend on the processing

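Alternatives were pseudocounts of 0.1 and 0.5, no filter, a mean of at least 5 RPKM, scaling by median ratios, limma's library weights, quantile normalization, a replicate block by replicate number or title number, and leaving out libraries. The count of 1 member called in E11.5 males was 0 with library weights, with the replicate block by title number, and without the 2 libraries with fewest genes, those highest in somatic markers or the 3 uneven in subunits, and 0 to 1 leaving out each library in turn. The count over both sexes was 0 to 1 leaving out each library, and the member was Mrpl33. The male median of the members was 0.0922 to 0.54 leaving out each library and 0.62 without the 3 uneven libraries, where the female minus male median was -0.86. The E10.5 median was -0.13 to 0.17 leaving out each library, and 0.0318 without the library highest in somatic markers. Other counts of members called did not change. The spread set for medians, the SD of the family mean within groups, came to 0.07 in the E10.5 and 0.32 in the E11.5 table, which is wide beside the medians: over both sexes the median was -0.05 to 0.18 leaving out each library and 0.26 without the 3 uneven libraries, between control sexes it was 0.08 to 0.39 and 0.0053 with library weights, and in females -0.16 to -0.04. Signs turned for Mrpl20 at E10.5 (-0.32 with library weights, -0.54 without female DCKO 1, -0.54 to 1.08 leaving out each library), Mrps12 in the difference between sexes (-0.12 with library weights), Mrps28 (-0.0312 with library weights) and Mrpl4 (0.11 with the replicate block by title number) between control sexes, Mrpl32 in females (-0.0360 with the replicate block by replicate number) and Mrps35 in males (0.10 with the replicate block by title number, 0.27 without the libraries highest in somatic markers, -1.54 to 0.37 leaving out each library, the highest without male DCKO 1). The cause was not tested. Same-numbered E11.5 libraries of the 2 genotypes correlated at -0.17 to 0.15 (replicate number, 8 pairs) and -0.02 to 0.21 (title number, 10 pairs). The remaining pairs ran from -0.22 to 0.38 by either number. In males the pairs with the same title number were all positive, from 0.06 to 0.21, and the other male pairs ran from -0.22 to 0.38. The numbers were not used as pairs in the main fits, and these ranges do not exclude pairing. Without read counts, no counting error can be given.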
